A study of Homo sapiens with 6 samples.

Results

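The genes described here are 323 antisense RNAs of HepG2 cells, out of 60605 genes in the deposited table. They were chosen by symbol and by their counts: a symbol that ends in -AS and a number, does not begin with LINC, and belongs to a gene with a total of at least 100 raw counts over the 6 libraries. The table holds 1538 genes with such a symbol, of which 569 had 0 counts and 646 had a lower total than the rule asks. Each antisense RNA was set beside its partner, the gene whose symbol stands before -AS. A partner row was found for 321 of them, all annotated as protein coding in GENCODE release 29, and 291 partners also passed the total of 100 counts. HOXA-AS2 is named after a gene cluster, and no row carries the symbol FAM198B. The level that chose the antisense RNAs comes from the same libraries as the comparison, and it was read without regard to group.

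HepG2 is an established human liver cancer line, with the genotype given as WT in every library. The cells were infected by lentivirus with a control hairpin (sh-control, treatment ctrl, 3 libraries) or one against circFTO (sh-circFTO, treatment circFTO KD, 3 libraries), circFTO being a circular RNA of the FTO gene. One label calls HepG2 epithelial and another mesenchymal, no library is labelled with serine or glycine deprivation, and no label gives a number of clones or hairpins. Whether replicates are separate cultures is not labelled, and p-values therefore reflect no more than the spread among the 6 samples, possibly a technical one.

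Antisense RNAs are transcribed from the DNA strand opposite to a named gene, and most do not encode a protein. Many start at the same CpG-rich promoter as the partner and run away from it, others start inside the partner or run into its end. Some are known to act on the partner in the nucleus, by bringing chromatin regulators to it or by transcription across it, some act elsewhere in the cell, and many are cleared by the nuclear exosome soon after they are made.

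Library totals ran from 13361333 to 16178079 counts. All 9 liver markers examined had at least 1 FPKM (counts scaled to exon length and library total) in every library, and their summed FPKM was 4352 to 4462 in sh-control and 3503 to 3591 in sh-circFTO. None of the 6 fibroblast markers and none of the 5 endothelial markers did so, with summed FPKM of 0.560 to 0.790 and 0.710 to 1.25 in sh-control and of 0.420 to 0.700 and 1.57 to 1.96 in sh-circFTO. Of the 5 blood markers only LYZ did, with a summed FPKM of 526 to 580.3 in sh-control and 121 to 123 in sh-circFTO and with PTPRC at 0 counts in all 6 libraries. LUM and KDR were at 0 counts as well. The gene-level count of FTO gave a log2 fold change of -0.01 (SE 0.0610, adjusted p = 0.923 by the edgeR quasi-likelihood test after Benjamini-Hochberg adjustment), and gene counts do not measure circFTO.

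Among genes with at least 100 counts, a smaller share of the antisense RNAs than of all tested genes differed between the groups. More antisense RNAs were lower than higher in sh-circFTO under TMM scaling. At an adjusted p of 0.05 or less, 59 antisense RNAs rose, 99 fell and 165 did not pass the test, so that 48.9% were called, against a background of 69.0% of the 14016 genes tested. In the background 34.6% were called higher and 34.4% lower, against 18.3% and 30.7% of the antisense RNAs. When all 30254 genes with at least 1 count were tested, the order of the shares was reversed. Then 34.1% of these genes and 46.7% of the antisense RNAs were called. With at least 100 counts, the median log2 fold change of the antisense RNAs was -0.13 (interquartile range -0.55 to 0.31), beside 0.00 (-0.42 to 0.40) over all genes tested. Scaled by library size alone, without TMM factors, the median of all genes was higher by 0.15, that of the antisense RNAs was 0.01, and 72 were called higher and 74 lower. The share of higher calls among called antisense RNAs was 37.3% with TMM and 49.3% without, and among all called genes 50.2% and 62.4%. The lean toward lower calls is therefore a lean relative to the other genes, of similar size under both scalings. The numbers of higher and lower calls depend on the scaling. By limma on log2(FPKM + 1), 76 were higher and 67 lower, a share of 53.1% higher beside 62.6% among all called genes. RNA of bulk cells was measured, so that fewer cells of a type and less RNA per cell cannot be told apart.

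Antisense RNAs were low in abundance. Their median total was 301 counts (101 to 9752), beside 2457.5 counts for all genes tested. Of the 270 antisense RNAs under 1000 counts 42.6% were called, against 51.1% of the 4362 tested genes under that total. Changes of at least 2-fold made up shares close to the background: 29 antisense RNAs (8.98%) rose and 27 (8.36%) fell by that much, against 7.74% and 7.90% of all genes tested. The 3 libraries of each group did not overlap for 68 antisense RNAs on the higher side and for 106 on the lower side, together 53.9%, against 35.5%, 35.4% and 70.9% of all genes tested. The total is summed over both groups, so a low antisense RNA could enter through the group where it is high. Under 50 counts in the 3 libraries of one group only were found for 33, and 22 of these were called. Such genes are uneven between the groups by definition, and the same share over all genes tested was not taken, so the 22 are no result. Just inside the rule were PPP1R14B-AS1 and BCDIN3D-AS1 with 101 counts each, and just outside it MNX1-AS1 and STX17-AS1 with 99 counts each. Together the antisense RNAs took 0.242%, 0.235% and 0.221% of all counts in the sh-control libraries and 0.223%, 0.220% and 0.217% in the sh-circFTO libraries. These shares overlapped between the groups.

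Per length, antisense RNAs stood below their partners. The median level was 0.957 FPKM in sh-control and 1.03 FPKM in sh-circFTO, beside 5.81 FPKM for the partners in sh-control. The antisense RNA had the higher FPKM in 69 of the 321 pairs in sh-control and in 67 in sh-circFTO. Most of the 323 were typed as antisense (242), processed transcript (42) or lincRNA (30) in GENCODE release 29, and 1, DIP2C-AS1, as protein coding.

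The 5 antisense RNAs highest by CPM (counts scaled to library size) were OIP5-AS1, FGD5-AS1, GABPB1-AS1, MAGI2-AS3 and NUTM2A-AS1. OIP5-AS1, a conserved cytoplasmic long non-coding RNA also called Cyrano, stood at 135, 118 and 127 CPM in the sh-control libraries and 64.9, 70.0 and 66.6 CPM in the sh-circFTO libraries. All 3 sh-circFTO libraries lay well below the sh-control libraries. Its level fell by 0.91 on the log2 scale (SE 0.0556, adjusted p = 1.06e-15 by the edgeR quasi-likelihood test after Benjamini-Hochberg adjustment), and OIP5, which encodes a centromere protein, changed by -1.04 (SE 0.159, adjusted p = 8.39e-07, edgeR). Per length the OIP5-AS1 level was 9.51 FPKM in sh-control and 5.58 FPKM in sh-circFTO, and that of OIP5 8.12 FPKM in sh-control and 4.39 FPKM in sh-circFTO. Both were called lower, and the change of their log2 ratio was not called, at 0.11 (SE 0.175, adjusted p = 0.61, limma). GABPB1-AS1, opposite the gene of a subunit of the transcription factor GABP, fell from 92.3 ± 15.9 CPM (SD, n = 3) in sh-control to 63.3 ± 4.8 CPM (SD, n = 3) in sh-circFTO, a log2 change of -0.54 (SE 0.0793, adjusted p = 3.62e-07, edgeR). The sh-control libraries spread from 74.5 to 105 CPM and all stayed above the highest sh-circFTO library, at 67.2 CPM. GABPB1 fell with it, by 0.44 (SE 0.0922, adjusted p = 9.34e-05, edgeR) on the log2 scale. MAGI2-AS3 fell (-0.58, adjusted p = 4.57e-10, edgeR) while MAGI2, the gene of a scaffold protein of cell junctions, had a log2 fold change of 0.24 (SE 0.226, adjusted p = 0.35, edgeR). NUTM2A-AS1 rose from 46.7 ± 2.38 CPM (SD, n = 3) in sh-control to 64.1 ± 1.42 CPM (SD, n = 3) in sh-circFTO, a log2 change of 0.46 (SE 0.0623, adjusted p = 1.1e-07, edgeR), and its partner NUTM2A had a total of 42 counts and was not tested. FGD5-AS1 rose least, by 0.14 (SE 0.0482, adjusted p = 0.0136, edgeR), with 105, 101 and 104 CPM in the sh-control libraries and 111, 113 and 115 CPM in the sh-circFTO libraries. The groups did not overlap, but the call was lost without sh-control replicate 2 (adjusted p = 0.0591, edgeR) and when all genes with at least 1 count were tested (0.0679, edgeR). FGD5, an exchange factor known from endothelial cells, had 4 counts in all.

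BOK-AS1 fell most. BOK-AS1 (ENSG00000234235, chr2:241544403-241558977, minus strand) lies opposite BOK, which encodes a member of the BCL2 family of apoptosis regulators, and overlaps its start. It stood at 34.8, 27.8 and 35.5 CPM in the sh-control libraries and 3.62, 3.18 and 3.48 CPM in the sh-circFTO libraries, so that every sh-circFTO library was far below every sh-control library. This gave a log2 fold change of -3.25 (SE 0.13, adjusted p = 1.92e-20 by the edgeR quasi-likelihood test after Benjamini-Hochberg adjustment). BOK itself stood at 71.3, 69.2 and 73 CPM in the sh-control libraries and 47.7, 57.6 and 56.9 CPM in the sh-circFTO libraries, a fall of 0.39 (SE 0.0653, adjusted p = 3.18e-06, edgeR) on the log2 scale. The log2 ratio of BOK-AS1 to BOK fell by 2.80 (SE 0.15, adjusted p = 1.8e-05, limma). Per length, BOK-AS1 was at 48.3 FPKM in sh-control and 5.61 FPKM in sh-circFTO, and BOK at 25.2 FPKM in sh-control and 21.2 FPKM in sh-circFTO, so that the antisense RNA lay above its partner in sh-control and below it in sh-circFTO. The promoter window of BOK-AS1 is printed because its transcript changed so much more than its partner's. It is the window of RefSeq's annotation on GRCh38.p14, chr2:241559094-241559393, minus strand, with 250 bases before the start and 50 after, and the capitals mark GC boxes (GGGCGG on either strand). It holds 37 CpG.
BOK-AS1: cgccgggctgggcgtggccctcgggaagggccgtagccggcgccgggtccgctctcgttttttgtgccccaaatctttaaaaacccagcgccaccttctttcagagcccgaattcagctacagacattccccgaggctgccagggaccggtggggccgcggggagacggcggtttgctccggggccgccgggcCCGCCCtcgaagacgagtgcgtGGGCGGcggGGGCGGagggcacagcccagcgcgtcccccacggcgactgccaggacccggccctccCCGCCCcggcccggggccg

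Of the other 9 antisense RNAs that fell most, 2 lie opposite genes with almost no counts. ITGA9-AS1, opposite an integrin gene with 24 counts in all, stood at 7.27, 6.3 and 8.07 CPM in the sh-control libraries and 2.13, 1.5 and 1.87 CPM in the sh-circFTO libraries, a log2 fold change of -1.98 (SE 0.219, adjusted p = 1.59e-09, edgeR). NPSR1-AS1, opposite the gene of the neuropeptide S receptor with 4 counts, stood at 25.3, 21.8 and 23.2 CPM in the sh-control libraries and 7.6, 6.3 and 6.51 CPM in the sh-circFTO libraries, a log2 fold change of -1.79 (SE 0.118, adjusted p = 8.04e-15, edgeR). In both, every sh-circFTO library lay below every sh-control library, as the choice required, and the partner was too low to test. HNF4A-AS1 lies inside HNF4A, which encodes a nuclear receptor that drives hepatocyte genes, and shares no exon base with it. It stood at 2.59, 3.44 and 2.27 CPM in the sh-control libraries and 0.639, 1.02 and 0.58 CPM in the sh-circFTO libraries, again with no overlap, a log2 fold change of -1.87 (SE 0.336, adjusted p = 1.14e-05, edgeR). HNF4A fell as well, from 262 ± 6.71 CPM (SD, n = 3) in sh-control to 116 ± 1.82 CPM (SD, n = 3) in sh-circFTO (log2 fold change -1.17, SE 0.0435, adjusted p = 2.62e-21, edgeR). The log2 ratio of the pair changed by -0.56 (SE 0.28, adjusted p = 0.123, limma), which did not pass.

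RGMB-AS1, opposite the gene of a co-receptor for bone morphogenetic proteins, had a log2 fold change of -1.96 (SE 0.37, adjusted p = 2.32e-05, edgeR) beside -0.51 (SE 0.157, adjusted p = 0.0045, edgeR) for RGMB. INTS6-AS1, opposite a gene of the Integrator complex that cleaves nascent RNA, had -1.80 (SE 0.30, adjusted p = 3.46e-06, edgeR) beside -0.49 (SE 0.0571, adjusted p = 5.26e-09, edgeR) for INTS6. DDN-AS1, opposite the gene of dendrin, a protein of podocytes and neurons, had -1.78 (SE 0.174, adjusted p = 1.03e-10, edgeR) beside -1.24 (SE 0.202, adjusted p = 2.26e-06, edgeR) for DDN. In these 3 pairs both genes fell, and the ratio was called changed for RGMB-AS1 (adjusted p = 0.00247, limma) and INTS6-AS1 (adjusted p = 0.00435, limma) but not for DDN-AS1 (adjusted p = 0.187, limma). RGMB was not called by limma on log2(FPKM + 1) (adjusted p = 0.0547). TBX2-AS1, which spans the gene of a T-box transcription factor, had -1.78 (SE 0.235, adjusted p = 5.38e-08, edgeR), and TBX2 had -0.18 (SE 0.142, adjusted p = 0.263, edgeR), which did not pass.

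The 3 largest rises were of antisense RNAs close to 0 in sh-control. GSN-AS1 (ENSG00000235865, chr9:121280768-121285530, minus strand), inside the gene of gelsolin, an actin-severing protein, had 5, 0 and 0 counts in sh-control and 35, 45 and 31 counts in sh-circFTO. The fit gave a log2 fold change of 4.29 (SE 0.561, adjusted p = 4.64e-08 by the edgeR quasi-likelihood test after Benjamini-Hochberg adjustment), and with so few sh-control counts its size depends on the model. GSN stood at 327, 325 and 338 CPM in the sh-control libraries and 1008, 1038 and 1057 CPM in the sh-circFTO libraries, a rise of 1.65 (SE 0.038, adjusted p = 1.27e-26, edgeR) on the log2 scale. Exons of GSN cover 5.86% of the exon bases of GSN-AS1, and reads of GSN introns inside the antisense exons could not be told apart without knowledge of the strand. PAX8-AS1, opposite the gene of a transcription factor of thyroid and kidney, had 0, 6 and 5 counts in sh-control and 55, 53 and 34 in sh-circFTO, a log2 fold change of 3.58 (SE 0.458, adjusted p = 3.18e-08, edgeR). PAX8 did not pass the test, with 2.72, 3.57 and 3.54 CPM in the sh-control libraries and 3.27, 3.36 and 2.64 CPM in the sh-circFTO libraries (log2 fold change -0.09, SE 0.235, adjusted p = 0.753, edgeR). The log2 ratio of PAX8-AS1 to PAX8 rose by 3.36 (SE 0.42, adjusted p = 0.000507, limma). SOCS2-AS1 overlaps the start of SOCS2, which encodes a suppressor of growth hormone and cytokine signals. It had 5, 4 and 2 counts in sh-control and 37, 45 and 31 in sh-circFTO, a log2 fold change of 3.24 (SE 0.423, adjusted p = 4.63e-08, edgeR). SOCS2 rose at the same time, with 3.0, 3.18 and 3.54 CPM in the sh-control libraries and 35.2, 38.9 and 34.4 CPM in the sh-circFTO libraries (log2 fold change 3.48, SE 0.12, adjusted p = 3.88e-22, edgeR). The groups were apart for both genes, and the change of their log2 ratio, -0.65 (SE 0.263, adjusted p = 0.0672, limma), did not pass.

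HECW2-AS1, inside the gene of a ubiquitin ligase that had 20 counts in all, stood at 1.89, 2.34 and 1.56 CPM in the sh-control libraries and 12.4, 13.4 and 12.5 CPM in the sh-circFTO libraries. The groups were far apart, with a log2 fold change of 2.72 (SE 0.181, adjusted p = 1.11e-14, edgeR). ARHGAP5-AS1, which overlaps the start of ARHGAP5, stood at 1.96, 1.95 and 2.12 CPM in the sh-control libraries and 8.59, 8.52 and 9.03 CPM in the sh-circFTO libraries. This was a log2 fold change of 2.11 (SE 0.193, adjusted p = 2.35e-11, edgeR), and ARHGAP5 rose with it (log2 fold change 1.03, SE 0.0469, adjusted p = 6.76e-19, edgeR). CFLAR-AS1, inside the gene of an inhibitor of death receptor signals, had 2.15 (SE 0.379, adjusted p = 8.14e-06, edgeR) beside 0.49 (SE 0.0534, adjusted p = 1.11e-09, edgeR) for CFLAR. GAS8-AS1, inside the gene of a subunit of ciliary motor regulation, had 2.06 (SE 0.373, adjusted p = 1.29e-05, edgeR) beside 0.87 (SE 0.0911, adjusted p = 4.47e-10, edgeR) for GAS8. In these 3 pairs the antisense RNA and its partner both rose and the ratio was called changed, with the log2 ratio up by 1.02, 1.42 and 0.92 (adjusted p = 0.000854, 0.00067 and 0.0239, limma).

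**Figure D1:**
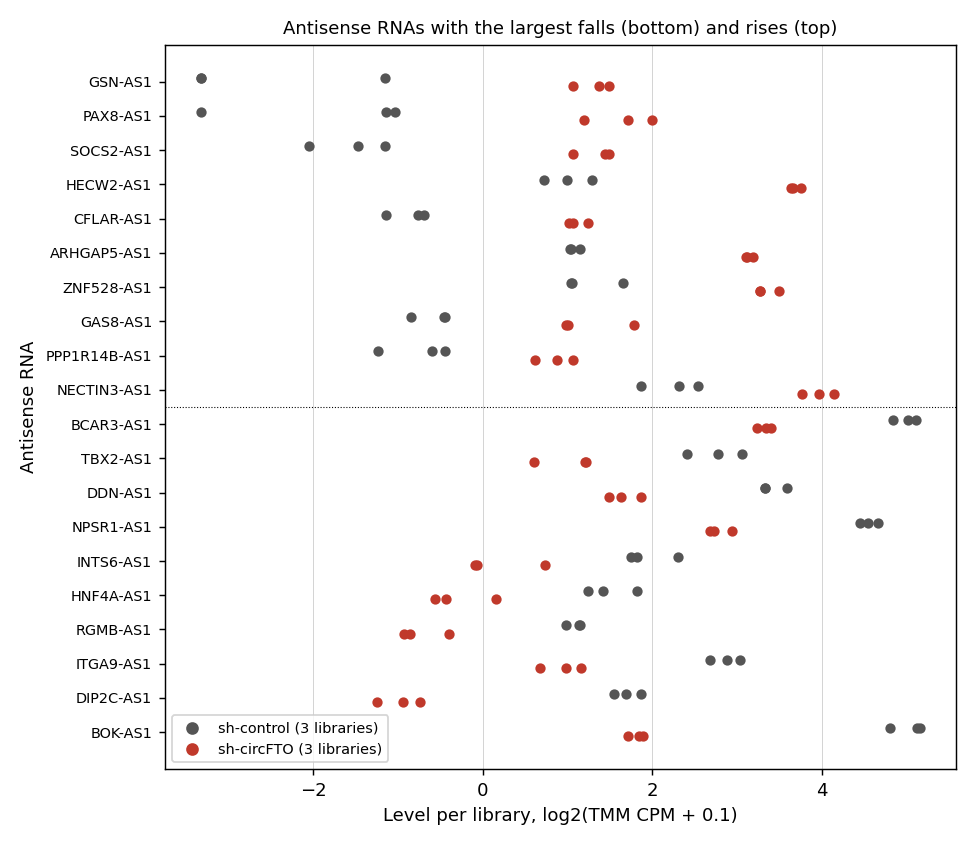
Level of the 10 antisense RNAs with the largest rises (top) and the 10 with the largest falls (bottom), as log2 of TMM-normalised CPM plus 0.1, in each of the 3 sh-control (grey) and 3 sh-circFTO (red) libraries. The 2 groups do not overlap in any row, as the choice of these genes required, and BOK-AS1 has the widest gap among the falls, 32.7 against 3.43 CPM.

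The question of whether an antisense RNA and its partner moved together was asked over the 291 pairs with both genes tested. Both genes were called in 108 pairs. In 80 of these they moved in the same direction, with 30 pairs higher and 50 lower, and in 28 they moved in opposite directions, with the antisense RNA higher in 10 and lower in 18. The antisense RNA alone was called in 29 pairs, the partner alone in 115, and neither in 39. Same-direction pairs made up 27.5% of all pairs, against a background of 27.2% of 13719 pairs of neighbouring tested genes. Opposite pairs made up 9.62%, against 21.7% of neighbouring pairs. Of pairs with both genes called, 74.1% moved the same way, against 55.6% of neighbouring pairs. Relative to neighbouring pairs, opposite pairs were thus fewer, while same-direction pairs made up a similar share of all pairs. Among pairs with both genes called, 63 of 78 that share exon bases moved the same way, and 17 of 30 that share none. This difference was not tested. Divergent pairs without overlap, with a median exon overlap of 0%, had 10 of 15 in the same direction. The count of opposite pairs was 17 without sh-circFTO replicate 2, a drop of more than 1.5 times. Across the 291 pairs the log2 fold changes had a Pearson r of 0.37 and a Spearman rank correlation of 0.34, beside 0.13 and 0.12 for neighbouring pairs. Each such value is a description, since the pairs share the 6 libraries and their scaling and a few share a partner.

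**Figure D2:**
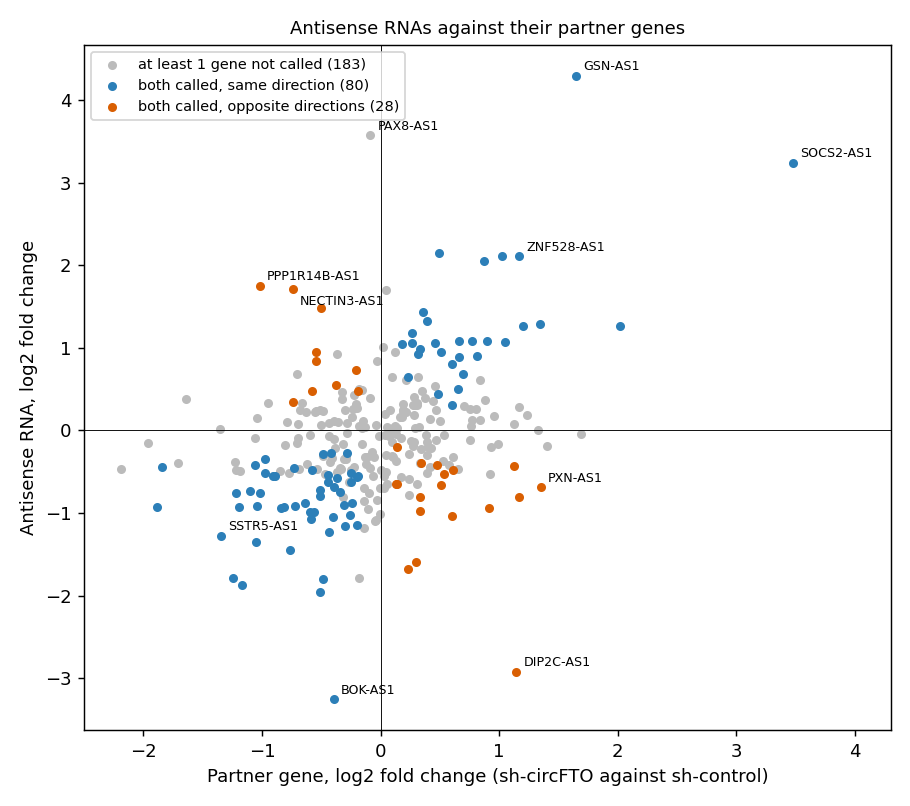
Log2 fold change of each of 291 antisense RNAs (vertical) against that of its partner (horizontal), sh-circFTO against sh-control. Blue points are the 80 pairs called in the same direction, orange the 28 pairs called in opposite directions and grey the 183 pairs with at least 1 gene not called.

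Among pairs called in opposite directions, DIP2C-AS1 and DIP2C differed most. DIP2C-AS1 (ENSG00000180525, chr10:649948-669581, plus strand) lies inside DIP2C, a gene of the disco-interacting protein family, and shares no exon base with it. The antisense RNA stood at 3.56, 3.12 and 2.83 CPM in the sh-control libraries and 0.497, 0.42 and 0.322 CPM in the sh-circFTO libraries, and DIP2C at 1.19, 1.69 and 1.35 CPM in the sh-control libraries and 3.91, 2.88 and 2.64 CPM in the sh-circFTO libraries. The order of the groups was reversed between the 2 genes, with no overlap in either. DIP2C-AS1 fell by 2.92 on the log2 scale (SE 0.356, adjusted p = 1.15e-08 by the edgeR quasi-likelihood test after Benjamini-Hochberg adjustment) and DIP2C rose by 1.14 (SE 0.287, adjusted p = 0.000784, edgeR). Their log2 ratio fell by 3.69 (SE 0.174, adjusted p = 1.23e-05, limma). Totals of 158 and 206 counts stand behind these values. Most of the counts of DIP2C-AS1 came from the sh-control libraries. The opposite pairs named here and below were chosen for a large difference in the same libraries, so their ratio tests add no separate evidence.

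PPP1R14B-AS1 overlaps the start of PPP1R14B, which encodes an inhibitor of protein phosphatase, and rose while its partner fell. It had 8, 5 and 9 counts in sh-control and 28, 24 and 27 in sh-circFTO, and PPP1R14B stood at 27.5, 31.1 and 34 CPM in the sh-control libraries and 15.4, 15.2 and 15.1 CPM in the sh-circFTO libraries. The groups did not overlap in either gene. The log2 fold changes were 1.75 (SE 0.394, adjusted p = 0.000225, edgeR) and -1.02 (SE 0.0944, adjusted p = 3.27e-11, edgeR), and the log2 ratio rose by 2.57 (SE 0.23, adjusted p = 0.000115, limma). The antisense RNA sits at the edge of the rule, with 101 counts in all, most of them from the sh-circFTO libraries.

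NECTIN3-AS1 overlaps the start of NECTIN3, the gene of an adhesion protein of cell junctions, and shares no exon base with it. It stood at 5.73, 4.87 and 3.54 CPM in the sh-control libraries and 15.5, 13.6 and 17.6 CPM in the sh-circFTO libraries, and NECTIN3 at 13.3, 13.9 and 14.6 CPM in the sh-control libraries and 7.03, 9.18 and 8.7 CPM in the sh-circFTO libraries. Every library of one group lay beyond every library of the other in both genes. The log2 fold changes were 1.72 (SE 0.154, adjusted p = 1.56e-11, edgeR) and -0.74 (SE 0.129, adjusted p = 6.43e-06, edgeR), and the log2 ratio rose by 2.46 (SE 0.235, adjusted p = 0.000149, limma). Per length, the antisense RNA passed its partner, from 1.38 against 1.72 FPKM in sh-control to 5.02 against 1.13 FPKM in sh-circFTO. A RefSeq promoter window of NECTIN3-AS1 is printed because the antisense RNA moved against its partner. It has 6 CpG, lies at chr3:111069910-111070209 on the minus strand of GRCh38.p14 in RefSeq's annotation, and its RefSeq start lies 1594 bases from the deposited start of the counted gene. Between the RefSeq starts of NECTIN3-AS1 and NECTIN3 lie 1857 bases without overlap, so that the overlap at the start of NECTIN3 holds for the deposited coordinates and not for this RefSeq start. The TATA box (TATAAA), the CCAAT box, the GC box (GGGCGG) and the E-box (CACGTG) were searched on both strands and none was in it, so it has no capitals.
NECTIN3-AS1: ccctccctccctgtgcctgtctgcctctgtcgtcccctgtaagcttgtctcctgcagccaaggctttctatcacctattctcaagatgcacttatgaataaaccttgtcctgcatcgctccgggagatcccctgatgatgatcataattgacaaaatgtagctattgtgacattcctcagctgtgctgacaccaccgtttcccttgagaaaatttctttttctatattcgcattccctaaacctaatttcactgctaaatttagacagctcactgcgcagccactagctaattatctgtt

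The other 5 opposite pairs of largest difference were PXN, IQCH, RASGRF2, BCAR3 and EMC3 with their antisense RNAs. PXN encodes paxillin, an adaptor of focal adhesions, and stood at 61.1, 59 and 54 CPM in the sh-control libraries and 151, 143 and 151 CPM in the sh-circFTO libraries (log2 fold change 1.35, SE 0.054, adjusted p = 1.87e-20, edgeR). PXN-AS1 stood at 2.66, 3.44 and 3.47 CPM in the sh-control libraries and 3.05, 1.8 and 1.16 CPM in the sh-circFTO libraries, and its groups overlapped (log2 fold change -0.69, SE 0.29, adjusted p = 0.0364, edgeR). That call was lost without sh-control replicate 2 or 3 or without sh-circFTO replicate 2 or 3, with adjusted p between 0.0774 and 0.231 (edgeR), and also with library size scaling alone (0.101, edgeR), DESeq2 (0.0679) and limma on log2(FPKM + 1) (0.132). IQCH-AS1 fell by 0.80 (SE 0.158, adjusted p = 4.06e-05, edgeR) and IQCH, with 108 counts in all, rose by 1.17 (SE 0.38, adjusted p = 0.00732, edgeR), a call lost without sh-control replicate 3 (adjusted p = 0.0530, edgeR). RASGRF2-AS1 rose by 1.48 (SE 0.375, adjusted p = 0.000826, edgeR) and RASGRF2, an exchange factor for Ras, fell by 0.50 (SE 0.0548, adjusted p = 1.35e-09, edgeR). EMC3-AS1, annotated as a transcribed pseudogene, fell by 1.59 (SE 0.29, adjusted p = 1.43e-05, edgeR) and EMC3, a subunit of the complex that inserts proteins in the endoplasmic reticulum membrane, rose by 0.30 (SE 0.0716, adjusted p = 0.000442, edgeR). BCAR3-AS1 fell from 31.7 ± 2.96 CPM (SD, n = 3) in sh-control to 9.94 ± 0.582 CPM (SD, n = 3) in sh-circFTO (log2 fold change -1.67, SE 0.101, adjusted p = 1.04e-15, edgeR). BCAR3, an adaptor linked to antiestrogen resistance in breast cancer cells, rose by 0.23 (SE 0.103, adjusted p = 0.0496, edgeR), a call lost without any of sh-control replicates 1 and 3 and sh-circFTO replicates 1, 2 and 3 (adjusted p between 0.0528 and 0.200, edgeR), with DESeq2 (0.0958) and with all genes of at least 1 count tested (0.119, edgeR).

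The 4 pairs of largest combined change that moved the same way and share no annotated exon base were those of CDKN2B, ZNF528, HNF4A and SSTR5. CDKN2B-AS1, also called ANRIL, spans the gene of a cyclin-dependent kinase inhibitor. It stood at 1.89, 1.04 and 0.567 CPM in the sh-control libraries and 2.49, 2.58 and 3.35 CPM in the sh-circFTO libraries (log2 fold change 1.26, SE 0.333, adjusted p = 0.00123, edgeR), and CDKN2B at 4.12, 4.35 and 6.02 CPM in the sh-control libraries and 17.9, 19 and 21.8 CPM in the sh-circFTO libraries (log2 fold change 2.02, SE 0.141, adjusted p = 3.45e-14, edgeR). Both rose with no overlap of the groups, though CDKN2B-AS1 was not called by limma on log2(FPKM + 1) (adjusted p = 0.0720). The ratio was not called changed (adjusted p = 0.231, limma). HNF4A-AS1 with HNF4A, given above, is another such pair, and the remaining 2 start close to the partner in the opposite direction.

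ZNF528-AS1 and ZNF528, a zinc finger gene, rose together. ZNF528-AS1 (ENSG00000269834, chr19:52388842-52397783, minus strand) stood at 1.96, 3.05 and 1.98 CPM in the sh-control libraries and 9.59, 11.2 and 9.54 CPM in the sh-circFTO libraries, and ZNF528 at 6.5, 8.12 and 6.3 CPM in the sh-control libraries and 17.1, 15.8 and 14.3 CPM in the sh-circFTO libraries. The log2 fold changes were 2.11 (SE 0.192, adjusted p = 2.14e-11, edgeR) and 1.17 (SE 0.132, adjusted p = 2.55e-09, edgeR), with no overlap of the groups in either gene, and the log2 ratio rose by 0.92 (SE 0.128, adjusted p = 0.000824, limma). SSTR5-AS1 and SSTR5, the gene of a somatostatin receptor, fell together. SSTR5-AS1 (ENSG00000261713, chr16:1064093-1078731, minus strand) stood at 10.9, 10.9 and 10.3 CPM in the sh-control libraries and 4.33, 4.8 and 4.13 CPM in the sh-circFTO libraries, and SSTR5 at 23.6, 22.2 and 21.5 CPM in the sh-control libraries and 9.45, 9.06 and 7.93 CPM in the sh-circFTO libraries. The log2 fold changes were -1.27 (SE 0.155, adjusted p = 1.23e-08, edgeR) and -1.35 (SE 0.111, adjusted p = 1.82e-12, edgeR), and the log2 ratio changed by 0.08 (SE 0.0913, adjusted p = 0.457, limma). In RefSeq's annotation on GRCh38.p14 the starts of ZNF528-AS1 and ZNF528 lie 92 bases apart, and those of SSTR5-AS1 and SSTR5 95 bases apart, so that 1 window holds both starts of a pair. These windows are printed on the minus strand, the strand of the antisense RNA, and capitals run from the start of the partner to that of the antisense RNA. The first is chr19:52397708-52398007, with 26 CpG and a GC box, and the other chr16:1078682-1078981, with 18 CpG and none of the letters searched.
ZNF528-AS1: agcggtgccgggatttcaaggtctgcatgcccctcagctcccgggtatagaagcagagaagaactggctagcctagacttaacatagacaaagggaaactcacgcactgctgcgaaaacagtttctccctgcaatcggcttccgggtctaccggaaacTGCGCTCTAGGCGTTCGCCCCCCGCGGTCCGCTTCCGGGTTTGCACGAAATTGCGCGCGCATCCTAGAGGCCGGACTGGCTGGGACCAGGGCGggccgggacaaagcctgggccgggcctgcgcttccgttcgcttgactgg
SSTR5-AS1: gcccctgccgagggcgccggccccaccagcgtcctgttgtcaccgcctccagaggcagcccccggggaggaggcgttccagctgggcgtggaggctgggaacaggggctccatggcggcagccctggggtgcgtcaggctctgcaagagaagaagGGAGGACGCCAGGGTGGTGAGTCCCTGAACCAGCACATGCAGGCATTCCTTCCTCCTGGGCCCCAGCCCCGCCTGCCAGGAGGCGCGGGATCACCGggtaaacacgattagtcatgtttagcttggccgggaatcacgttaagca

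**Figure D3:**
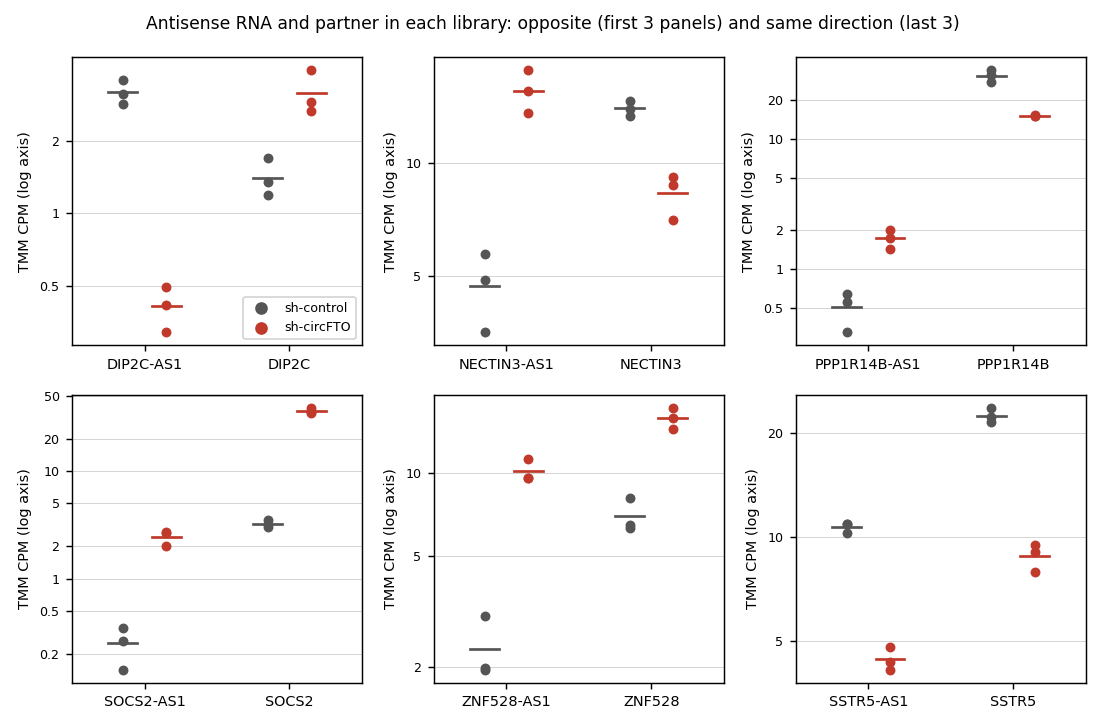
TMM-normalised CPM (log axis) of 6 antisense RNAs and their partners in each library, with a bar at the mean of each group of 3, sh-control in grey and sh-circFTO in red. In the top panels (DIP2C, NECTIN3, PPP1R14B) the antisense RNA and the partner change in opposite directions, and in the bottom panels (SOCS2, ZNF528, SSTR5) in the same direction.

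Promoter windows in the RefSeq table matched 237 of the 323 antisense RNAs by symbol, and 36 of these windows also held the partner's RefSeq start. In 23 the RefSeq start lay over 1000 bases from the deposited one. The windows had a median of 22 CpG, beside 14 over all 34943 windows in the table. GGGCGG on either strand was in 59.9% of them and in 44.9% of all windows, and in 60.0% for antisense RNAs called higher and 54.3% for those called lower. TATAAA was in 4.64% and in 11.6% of all windows, CCAAT in 30.8% and 34.6%, and the E-box CACGTG, which Myc can bind, in 8.86% and 7.23%. CACGTG was in 6.67% of the windows of antisense RNAs called higher, in 4.29% of those called lower and in 12.3% of those not called. A match of letters is a description of the window and not a site. The windows of the whole table were not limited to genes with counts in these libraries. Windows of tested genes alone were not compared, so these contrasts may not be particular to antisense RNAs.

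Position relative to the partner was read from the deposited coordinates and strands. Most antisense RNAs overlapped the partner's start (134) or end (67). Another 51 lay inside the partner, 37 started apart from it and ran away from it, 30 spanned it and 2 ran toward it without reaching it. Of those across the start, 21 rose and 39 fell (together 44.8%), and of those across the end, 12 rose and 17 fell (43.3%). Inside the partner 14 rose and 18 fell, together 62.7%. Divergent antisense RNAs counted 7 higher and 11 lower (48.6%), and those spanning the partner 5 and 13 (60.0%). All of these shares lay below the 69.0% of all genes tested, of which 34.6% were higher and 34.4% lower. Under TMM scaling every class with calls held more lower than higher calls. The median log2 fold change inside the partner was nevertheless 0.06. The Pearson r of log2 fold changes between antisense RNA and partner was 0.46 over the 49 tested pairs with the antisense RNA inside the partner, 0.50 over 35 divergent pairs, 0.42 over 19 spanning pairs, 0.38 over 126 pairs across the start and 0.15 over 60 pairs across the end. The Spearman rank correlation of the same classes was 0.52, 0.36, 0.17, 0.28 and 0.22, so that the order of the classes depends on the measure. The pairs of each class share the same 6 libraries.

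**Figure D4:**
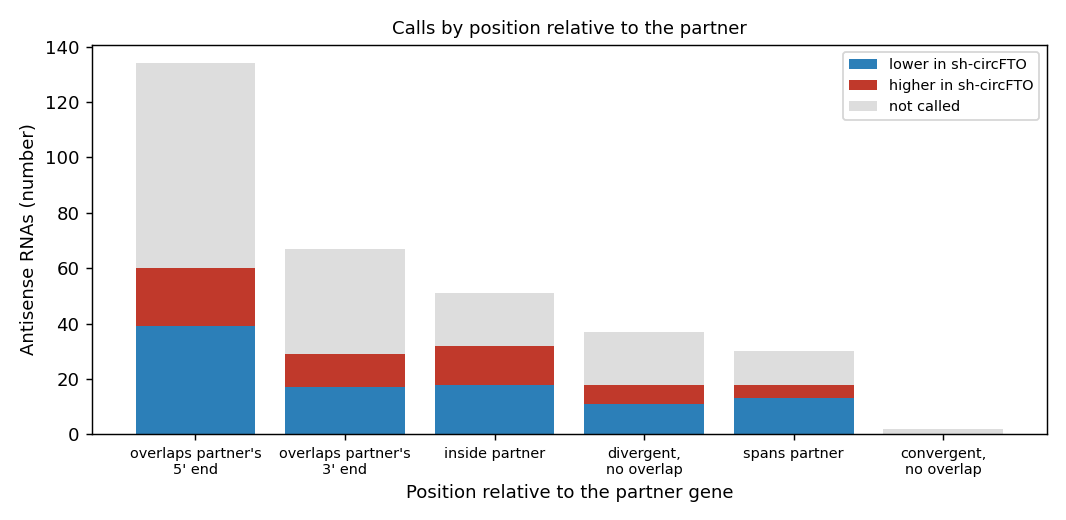
Number of antisense RNAs by position relative to the partner gene, split into lower (blue) and higher (red) in sh-circFTO and not called (light grey) by edgeR. The class across the partner's start is the largest, with 39 lower, 21 higher and the rest of its 134 not called.

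Pairs were also split by whether they share exon bases. Of 232 pairs that share exon bases in GENCODE release 29, 63 were called in the same direction and 15 in opposite directions, with r = 0.42 over the 212 tested. Of the 89 that share none, 17 and 13 were called so, with r = 0.21 over the 79 tested, and the difference between these r values was not tested. Among pairs with both genes called, 63 of 78 with shared bases and 17 of 30 without moved the same way. Pairs without shared bases thus stayed close to the 55.6% of neighbouring pairs. The median log2 fold change of the antisense RNAs was -0.05 with shared bases and -0.31 without. The strand setting of the counting is not given in the sources used here. Where exons of a gene and its antisense partner overlap, reads can be exchanged between them or lost from both. Of 17 protein coding genes whose exon bases all lie in exons of the opposite strand, 14 (82.4%) had 0 counts, while 22.8% of the 13083 that share no exon base were at 0. The other 3 were CFAP126 with 655 counts, above the median of 246 counts of the genes that share none, GNAT2 with 22 and CIDEB with 1. What exchange or loss of reads does to the pairs was not tested. Reads from a partner's introns inside the exons of its antisense RNA cannot be told apart from reads of the antisense RNA.

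The ratio of antisense RNA to partner was tested with limma over 14010 pairs, neighbouring genes included. It changed in 137 of the 291 antisense pairs (47.1%), with 66 higher and 71 lower, against a background of 60.5% of all pairs. Of the 28 pairs called in opposite directions 27 passed, the exception being PSMA3-AS1. Opposite calls in the same libraries already imply a changed ratio, so this count adds no separate evidence. Of the 80 pairs called in the same direction 30 passed and 50 did not.

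Antisense RNAs known from other studies were taken from a list, whatever their result. NNT-AS1, opposite the gene of a mitochondrial transhydrogenase, stood at 25.6, 27.6 and 29 CPM in the sh-control libraries and 11.6, 14 and 14.8 CPM in the sh-circFTO libraries, a log2 fold change of -1.02 (SE 0.101, adjusted p = 1.38e-10, edgeR), and NNT had -0.26 (SE 0.0512, adjusted p = 3.85e-05, edgeR). The groups were apart for both genes, with the antisense RNA lower by more (log2 ratio -0.76, SE 0.127, adjusted p = 0.0019, limma). ZEB1-AS1, opposite the start of a repressor of epithelial genes, stood at 12.2, 13.1 and 11.6 CPM in the sh-control libraries and 6.82, 7.92 and 8.9 CPM in the sh-circFTO libraries, a log2 fold change of -0.64 (SE 0.134, adjusted p = 8.91e-05, edgeR). ZEB1 had 0.06 (SE 0.0844, adjusted p = 0.572, edgeR), and passed only when scaled by library size alone (adjusted p = 0.0362, edgeR). TMPO-AS1 fell by 1.07 (SE 0.248, adjusted p = 0.000323, edgeR) beside -0.59 (SE 0.0438, adjusted p = 1.59e-13, edgeR) for TMPO, which encodes proteins of the nuclear lamina. MAPKAPK5-AS1 fell by 0.57 (SE 0.113, adjusted p = 4.55e-05, edgeR) beside -0.37 (SE 0.0726, adjusted p = 4.19e-05, edgeR) for the kinase gene MAPKAPK5. By limma on log2(FPKM + 1), MAPKAPK5 (adjusted p = 0.0586) and NNT (0.0956) were not called. These 4 antisense RNAs fell with no overlap of the groups.

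KDM4A-AS1 stood at 2.79, 3.18 and 3.4 CPM in the sh-control libraries and 3.34, 3.3 and 3.29 CPM in the sh-circFTO libraries, and its log2 fold change was 0.08 (SE 0.229, adjusted p = 0.763, edgeR). KDM4A, a histone demethylase gene, rose from 55.9 ± 3.28 CPM (SD, n = 3) in sh-control to 122 ± 2.96 CPM (SD, n = 3) in sh-circFTO (log2 fold change 1.13, SE 0.0552, adjusted p = 4.03e-18, edgeR), so that the log2 ratio fell by 1.04 (SE 0.144, adjusted p = 0.000789, limma). The groups overlapped for KDM4A-AS1. SBF2-AS1 had -0.22 (SE 0.157, adjusted p = 0.222, edgeR) and SBF2, of the myotubularin family, -0.38 (SE 0.0578, adjusted p = 6.73e-07, edgeR). HOXA-AS2, from the HOXA cluster, stood at 18, 17.5 and 14.9 CPM in the sh-control libraries and 15.7, 12.4 and 13.3 CPM in the sh-circFTO libraries, and its groups overlapped. Its log2 fold change was -0.29 (SE 0.114, adjusted p = 0.0258, edgeR), a call lost without sh-control replicate 1 or 2 or sh-circFTO replicate 2 or 3 (adjusted p between 0.0577 and 0.147, edgeR), and also with library size scaling alone (0.275, edgeR), DESeq2 (0.0538) and limma on log2(FPKM + 1) (0.354). PSMA3-AS1 overlapped too, at 40.2, 38.4 and 32.1 CPM in the sh-control libraries and 35.7, 31.1 and 30.2 CPM in the sh-circFTO libraries, with -0.19 (SE 0.0857, adjusted p = 0.0449, edgeR) beside 0.14 (SE 0.0557, adjusted p = 0.0264, edgeR) for PSMA3, a proteasome subunit gene. The call of PSMA3-AS1 was lost without sh-control replicate 1 or 2 or sh-circFTO replicate 2 or 3 (adjusted p between 0.0879 and 0.198, edgeR), and that of PSMA3 without sh-control replicate 1 or 2 or sh-circFTO replicate 3 (adjusted p between 0.0531 and 0.263, edgeR). DESeq2 called neither (adjusted p = 0.0808 and 0.0617).

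Antisense RNAs whose partner is a zinc finger gene of the ZNF series were looked at after their values had been seen. Of 17, 4 (23.5%) rose and 0 fell by edgeR, with a median log2 fold change of 0.27, beside 34.6% higher and 34.4% lower of all genes tested. Those that rose were ZNF528-AS1, ZNF561-AS1 (log2 fold change 1.29), ZNF32-AS2 (0.80) and ZNF566-AS1 (0.65). Of the 16 tested partners of these 17 antisense RNAs, 8 rose and 3 fell, and 34.6% and 34.4% of all genes tested did so.

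Among genes that clear or end such transcripts, the nuclear exosome and its adaptors had 5 of 18 genes higher and 8 lower, with a median log2 fold change of -0.12, and the cleavage, polyadenylation and termination list had 7 of 17 higher and 3 lower, with a median of 0.05, beside 34.6% higher and 34.4% lower over all genes tested. In the exosome list EXOSC8, a subunit of its ring, fell by 0.89 (SE 0.0676, adjusted p = 3.23e-13, edgeR), while EXOSC10, its nuclear nuclease, rose by 0.40 (SE 0.0457, adjusted p = 3.31e-09, edgeR). In the other list CLP1, a kinase of the cleavage complex, rose by 0.93 (SE 0.0925, adjusted p = 1.60e-10, edgeR), and NUDT21, which picks polyadenylation sites, fell by 0.22 (SE 0.0472, adjusted p = 0.000163, edgeR). Over both lists 12 genes were higher and 11 lower, and with library size scaling alone 17 and 5. Divergent transcripts, with symbols ending in -DT, counted 10 higher and 24 lower of 70, with a median log2 fold change of -0.28, beside -0.13 for the antisense RNAs. Of the 6 intronic transcripts, with symbols ending in -IT, 0 passed by edgeR, and the 1 overlapping transcript, ending in -OT, did not pass.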

How the data were processed

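RNA of 6 HepG2 libraries was sequenced, with libraries made from total RNA by an mRNA-Seq kit, per the labels' protocols. Per the file headers, the deposited table holds raw counts per Ensembl gene, the authors' FPKM values, and exonic gene lengths in bases. Aligner, counter, strand setting and annotation release: not given in the sources used here. Builds listed in the submitters' processing notes are GRCm38, mm10 and hg18, but the IDs belong to human genes, and 58337 of 60605 are in GENCODE release 29 on GRCh38, 56808 of them at the same place within 5000 bases, so coordinates are given on GRCh38. All 323 antisense RNAs are in that release, 287 at the same place.

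Genes with a total of at least 100 counts over the 6 libraries were tested (14016 genes), since a filter of 1 FPKM would leave 176 of the 323 antisense RNAs. Library sizes were totals over all genes, scaled by TMM. edgeR 4.0.16 (R 4.3.3) compared sh-circFTO with sh-control by the quasi-likelihood test with Benjamini-Hochberg adjustment over all genes tested, and genes at 0.05 or less were called. Levels are TMM-normalised CPM and fold changes log2 values with standard errors (SE). For the ratio of antisense RNA to partner, limma 3.58.1 fitted log2 CPM (prior count 2) differences over all neighbouring tested pairs and the antisense pairs together. Both fits were run on simulated data in which few genes changed and all had the same spread setting. In these data 69.0% of the genes tested were called, so that check does not carry over to them in full. Libraries of one group differed by a chi-square of 2.03 to 4.03 per degree of freedom, above sampling noise, so none was a copy of another.

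The members and lists were chosen with earlier results of these data known. The genes named were the 10 largest rises and 10 largest falls called with groups apart, the 5 of highest mean CPM, the 8 opposite pairs of largest difference, the 4 same-direction pairs of largest combined change with no exon overlap, their partners, the genes at the edge of the rule, and a list of known antisense RNAs. Alternatives were other scalings, filters and tests (DESeq2 1.42.0, limma on log2(FPKM + 1)), the replicate number as a block, and each library left out.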

Additional observations from a re-analysis of the deposited data

How the results depend on the processing

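Antisense RNAs called higher were 59 and lower 99. Other settings gave 72 and 74 (library size only), 59 and 98 (median-of-ratios factors), 53 and 98 (genes with at least 1 count), 52 and 85 (DESeq2) and 76 and 67 (limma on log2(FPKM + 1)). Shares called were 45.2% of antisense RNAs and 70.6% of all genes (library size only) and 48.6% and 69.0% (median-of-ratios factors). They were 42.4% and 64.9% with DESeq2 and 44.3% and 68.8% with limma on log2(FPKM + 1). With genes of at least 1 count they were 46.7% and 34.1%, so the order of the shares depends on the filter. Filters that test fewer antisense RNAs gave fewer calls: with FPKM of at least 1, 63 lower, 15 opposite and 46 same-direction pairs, and with a total of at least 300, 31 higher, 15 opposite and 44 same-direction pairs and 73 changed ratios. The share called rose, however. With FPKM of at least 1 it was 58.5% of 176 antisense RNAs and 69.7% of all genes tested. With a total of at least 300 it was 61.7% of 162 and 74.0% of all genes tested. DESeq2 gave 18 opposite pairs. Changed ratios numbered 62 over pairs with at least 1 count, and 35 with the pairs that share exon bases left out, which leaves fewer pairs. The decay and 3' end lists, with 11 genes lower, had 5 with library size only and 5 with limma on log2(FPKM + 1). The cause of these moves beyond fewer genes tested was not tested. No called change of a named gene changed direction under the alternatives run. With limma on log2(FPKM + 1), more antisense RNAs were called higher than lower. Their share of higher calls, 53.1%, still stayed below the 62.6% among all called genes. The median log2 fold change of the antisense RNAs turned from -0.13 to 0.01 with library size only, and that of all genes tested from 0.00 to 0.15. Among genes not called, BCDIN3D-AS1 and PAX8 changed sign with library size only (to 0.10 and 0.06), with limma on log2(FPKM + 1) and without some libraries, and BCDIN3D, KDM4A-AS1 and ZEB1 did so each without 1 library. Among named genes, PSMA3-AS1 also lost its call with library size only (adjusted p = 0.639, edgeR), a total of at least 300 (0.0504, edgeR) and limma on log2(FPKM + 1) (0.755), and PSMA3 with at least 1 count (0.0630, edgeR).

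Leaving out each library gave 52 to 56 higher and 85 to 100 lower antisense RNAs, 17 to 25 opposite and 70 to 80 same-direction pairs, 112 to 124 changed ratios, and 11 to 12 higher and 9 to 12 lower genes of the decay lists. Same-numbered libraries of the 2 groups did not deviate together (correlations -0.0127, -0.0151 and 0.0595). With so few libraries this does not show whether they shared a culture or a batch. With the replicate block, 58 antisense RNAs were higher and 100 lower, with 29 opposite and 79 same-direction pairs and 126 changed ratios. Antisense RNAs with few counts had the widest errors, and a low one that did not pass may still differ.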
